A study of Chlamydomonas reinhardtii with 24 samples.

Results

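LHCB5 (Cre16.g673650_4532.v6.1) and LHCB7 (Cre02.g110750_4532.v6.1) are genes for minor antenna proteins of photosystem II (PSII) in the unicellular green alga Chlamydomonas reinhardtii. They are 2 of the 14621 genes in the deposited count table, and were chosen by their measured transcript response to UV-B, which ran in opposite directions. The choice names no strain and is taken to rest on wild type. The wild-type response, and every difference of these genes from the wild-type libraries, is therefore described below without a test. Whether mutant responses also entered the choice is not known. If they did, the p-values of these 2 genes in the mutants are not independent of it. Both genes passed the filter on low counts, with at least 251 counts in every library.

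Polyadenylated RNA was sequenced from 24 libraries in 8 groups of 3. The mutants labelled uvr8, co and hy5, each a single insertion-library strain in the CC5325 background, and wild-type CC5325 (WT) were kept with or without UV-B. UVR8 is the UV-B photoreceptor, CO a CONSTANS-like regulator and HY5 (CrBlz3 in the series text) a bZIP transcription factor. Cells of all groups had grown in acetate medium under continuous dim light, and were moved to minimal medium before treatment. For the UV-B groups, narrowband tubes gave 0.2 mW/cm2 through a filter with its half-maximum at 311 nm, for 1 h per the series text. For the groups without UV-B, the corresponding filter value was 360 nm, and dim white light (20 µmol/m2/s) reached all groups. Since each mutated gene is represented by 1 strain, an effect of the gene and one of the strain cannot be told apart.

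PSII draws excitation energy from light-harvesting complexes. Trimers of LHCBM proteins make up the bulk of its antenna, and monomeric minor antenna proteins sit between these trimers and the core. LHCB5 encodes CP26, one of these linkers, and LHCB4 encodes the other, CP29, which was not analysed here. LHCB7 belongs to the same family, its counterpart in Arabidopsis is rarely expressed, and its place in the antenna is less well known. UVR8 is known to signal through COP1 to photoprotective genes, with CO and HY5 among the regulators downstream.

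Library totals ranged over 19267716 to 27686700 counts, and 13613 genes passed the filter and were tested. CO was at 9.91 ± 0.131 and 7.77 ± 1.18 counts per 1000000 (CPM) with and without UV-B in co, against 772 ± 84.6 and 615 ± 102 CPM in WT (SD, n = 3 each). HY5 was at 0.931 ± 0.128 and 0.824 ± 0.207 CPM in hy5, against 162 ± 18.3 and 8.40 ± 2.58 CPM in WT. UVR8 stood at 24.6 ± 0.936 CPM in uvr8 and 40.0 ± 8.77 CPM in WT without UV-B, a smaller difference that checks the label less closely, since the lesion is not described. No 2 libraries of a group matched within sampling noise (chi-square 21.3 to 131 per degree of freedom over 24 pairs), so each was kept as a sample. The labels do not name separate cultures, so the p-values rest on the spread between samples that may be technical repeats.

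LHCB5 is an abundant transcript, with 30159 to 88192 counts per library and a counting error of 0.337% to 0.576%. LHCB7 had 251 to 1814 counts per library and a counting error of 2.35% to 6.31%, below the coefficient of variation between libraries of a group (7.50% to 36.8%). Levels are given below in CPM on library sizes scaled by edgeR's TMM method. Such a level is a share of the polyadenylated RNA, so less of a transcript per cell and more of other RNA cannot be told apart. The levels of the genes are not set against each other, because the table gives no transcript lengths. Changes are log2 fold changes of UV-B over no UV-B, or of mutant over WT, with their SE and p-values adjusted over all 13613 genes. Across both genes, 12 such tests are reported, all among the mutant libraries. P-values were also computed for these genes against WT without UV-B, and are not given. The share of all genes whose groups do not overlap is not given either, so statements on overlap are a description.

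In hy5, LHCB5 fell and LHCB7 rose with UV-B. LHCB5 stood at 1555, 1449 and 1648 CPM in the hy5 libraries with UV-B, against 2795, 2543 and 2637 CPM in those without. Every UV-B library lay below every library without UV-B, and LHCB5 fell by 0.78 on the log2 scale (SE 0.12, edgeR adjusted p = 7.39e-05), which is 1.71-fold lower. LHCB7 stood at 53.2, 72.0 and 70.1 CPM with UV-B, against 18.7, 17.0 and 12.1 CPM without. Again the groups did not overlap, and LHCB7 rose by 2.03 (SE 0.24, edgeR adjusted p = 3.06e-06), which is 4.09-fold. Among the 13613 genes tested in hy5, 2.54% fell and 7.04% rose, and LHCB7 had the rise ranked 215 and LHCB5 the fall ranked 936 by size. Both calls held when any 1 of the 6 hy5 libraries, or all 8 libraries of a replicate number, were left out, with DESeq2, and in a fit of the 18 mutant libraries alone.

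**Figure D1:**
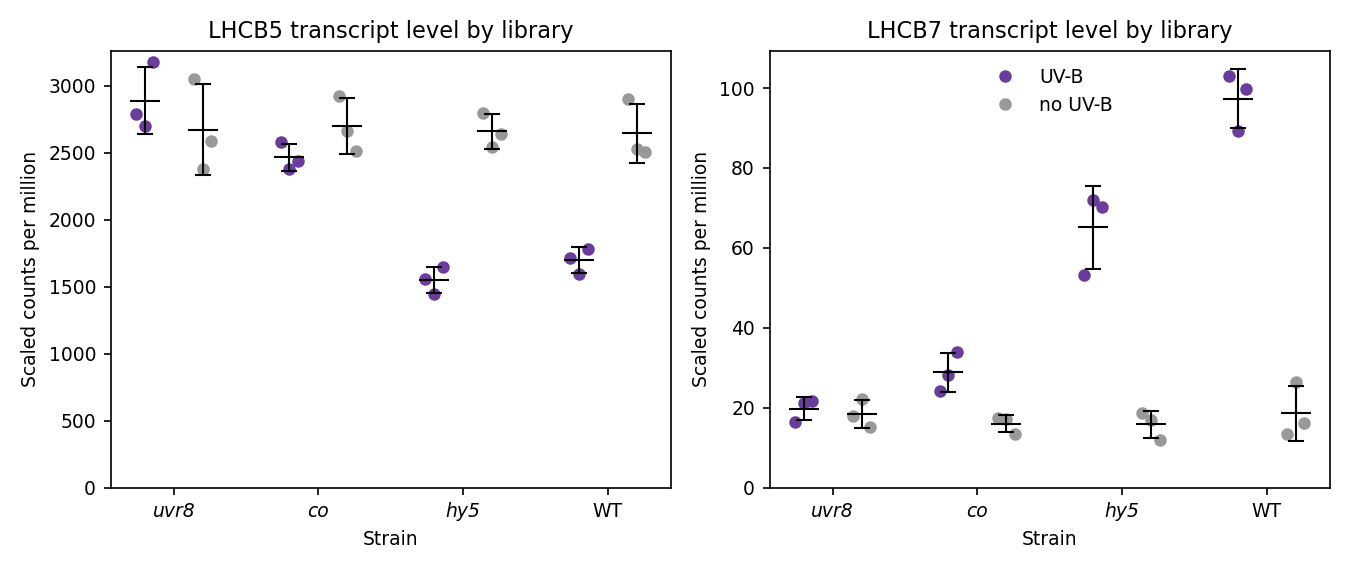
Levels of LHCB5 (left) and LHCB7 (right) in CPM on TMM-scaled library sizes, by strain, with UV-B (purple) left of no UV-B (grey). Points are libraries and black bars are the mean ± SD of 3 libraries. In hy5 the UV-B libraries lay at 1449 to 1648 CPM for LHCB5 and 53.2 to 72.0 CPM for LHCB7, apart from the libraries without UV-B, while in uvr8 the points of both treatments overlapped.

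In uvr8, neither gene changed detectably. LHCB5 was at 2787, 2702 and 3174 CPM with UV-B and at 3047, 2381 and 2585 CPM without, so the groups overlapped. Its log2 fold change was 0.11 (SE 0.11, 95% interval -0.13 to 0.35, edgeR adjusted p = 0.771). LHCB7 was at 16.5, 21.3 and 21.7 CPM with UV-B and at 18.1, 22.2 and 15.3 CPM without, also overlapping. Its log2 fold change was 0.10 (SE 0.23, 95% interval -0.38 to 0.57, edgeR adjusted p = 0.906). Its upper bound of 0.57 lay below the 2.03 measured in hy5. In this comparison edgeR called 0 of 13613 genes (0%), with 1209 at an unadjusted p under 0.05, and DESeq2 called 14. Leaving out the 8 libraries numbered 1 raised edgeR's count to 1580 genes, with LHCB5 and LHCB7 still not called.

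In co, LHCB5 did not change detectably, and LHCB7 was higher with UV-B without passing the threshold in edgeR. LHCB5 was at 2576, 2379 and 2439 CPM with UV-B and at 2923, 2658 and 2513 CPM without. These ranges overlapped, and the log2 fold change was -0.13 (SE 0.11, 95% interval -0.37 to 0.11, edgeR adjusted p = 0.939). LHCB7 was at 24.3, 28.3 and 34.0 CPM with UV-B, against 17.5, 17.2 and 13.6 CPM without. All UV-B libraries lay above all libraries without UV-B, with means of 28.9 ± 4.89 and 16.1 ± 2.17 CPM (SD, n = 3 each). The log2 fold change of 0.84 (SE 0.23, 95% interval 0.36 to 1.32) did not pass with edgeR (adjusted p = 0.0785). It passed with DESeq2 (adjusted p = 0.0225), with a replicate block (edgeR adjusted p = 0.0298) and without the 8 libraries numbered 1 (edgeR adjusted p = 0.0402). These were 1 of 9 fits with libraries left out and 2 of 7 other fits. It did not pass in the rest (edgeR adjusted p up to 0.193 among the 7 and up to 0.99996 among the 9). In co, edgeR called 1.65% of genes as higher and 0.0661% as lower with UV-B.

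WT is the strain whose response is taken to have chosen the genes. There LHCB5 was at 1714, 1594 and 1783 CPM with UV-B, against 2899.9, 2527 and 2503 CPM without. LHCB7 was at 103, 89.2 and 99.9 CPM with UV-B, against 13.5, 26.5 and 16.2 CPM without. The second library without UV-B held the highest LHCB7 level of all 12 libraries without UV-B. The fitted log2 fold changes were -0.64 (SE 0.12) for LHCB5 and 2.38 (SE 0.24) for LHCB7, and nothing is read from the 5.7% of genes called lower and 10.6% called higher in WT (2215 genes, or 3872 once same-numbered libraries were paired in a block). TMM factors moved with the treatment in WT, at 0.670 to 0.872 with UV-B and 0.848 to 0.997 without. In CPM on library totals, with no such factor, LHCB5 was at 1149, 1390 and 1476 with UV-B and 2459, 2494 and 2495 without, and LHCB7 at 69.1, 77.7 and 82.6 with UV-B and 11.4, 26.2 and 16.1 without. The direction of both genes was the same on either scale, and the log2 fold change of LHCB5 was -0.89 without the factors.

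The UV-B responses of the mutants were then compared with each other, where no WT library is part of the contrast. As within hy5, the p-values assume that mutant responses did not enter the choice of the genes. For LHCB5, the change in hy5 was lower than that in uvr8 by 0.89 on the log2 scale (SE 0.16, edgeR adjusted p = 0.00139). For LHCB7, the change in hy5 was higher than that in uvr8 by 1.94 (SE 0.33, edgeR adjusted p = 0.000608). In this comparison 0.331% of genes had a lower and 3.89% a higher change in hy5. Both calls held without any 1 of the 12 libraries compared. Without the 8 libraries numbered 3 both were lost (edgeR adjusted p = 0.307 for LHCB5 and 0.0694 for LHCB7), and without the 8 numbered 2 that of LHCB5 was lost (edgeR adjusted p = 0.168).

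The responses in co were not separated from those in the other mutants in the fit of 24 libraries without a block. Some other fits called both genes for hy5 against co, and most did not. The change in co minus that in uvr8 was -0.24 for LHCB5 (95% interval -0.58 to 0.10, edgeR adjusted p = 1.00) and 0.75 for LHCB7 (95% interval 0.07 to 1.42, edgeR adjusted p = 0.797). Of all genes, 0.566% had a higher change in co and 0% a lower one. The change in hy5 minus that in co was -0.65 for LHCB5 (SE 0.16, edgeR adjusted p = 0.0717, 0.00858 with a replicate block and 0.0172 on library totals, DESeq2 adjusted p = 0.00101) and 1.19 for LHCB7 (SE 0.32, edgeR adjusted p = 0.115, 0.0491 with a replicate block, DESeq2 adjusted p = 0.0220). Here edgeR called 0.00735% of genes as lower and 0.94% as higher in hy5. With libraries left out, 0 of 15 fits passed for either gene (lowest edgeR adjusted p 0.0641 for LHCB5 and 0.0866 for LHCB7). Of 7 other fits, 3 passed for LHCB5 and 2 for LHCB7. Comparisons with uvr8 share its 6 libraries, and those with co share its 6 libraries.

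**Figure D2:**
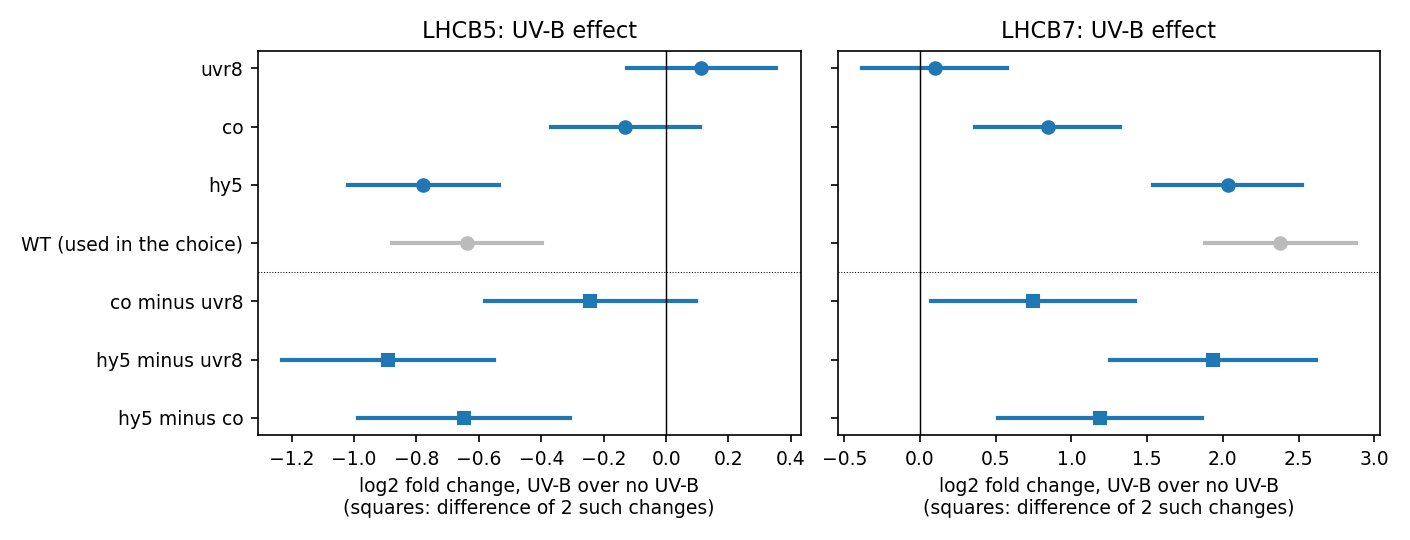
Log2 fold changes with UV-B in each strain (circles) and differences of such changes between mutants (squares) for LHCB5 (left) and LHCB7 (right), with 95% intervals from the edgeR fit of 24 libraries. WT is grey because its response is taken to have chosen the genes. The hy5 values, at -0.78 and 2.03, lie away from 0 on opposite sides.

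Set against WT as a description, the change of LHCB5 with UV-B in uvr8, co and hy5 minus that in WT was 0.75 (SE 0.16), 0.51 (SE 0.16) and -0.14 (SE 0.16) on the log2 scale. For LHCB7 these differences were -2.28 (SE 0.33), -1.54 (SE 0.32) and -0.35 (SE 0.32). Under UV-B, LHCB7 averaged 19.8 ± 2.92 CPM in uvr8, 28.9 ± 4.89 CPM in co and 65.1 ± 10.4 CPM in hy5, against 97.4 ± 7.30 CPM in WT (SD, n = 3 each). LHCB5 averaged 2888 ± 251 CPM in uvr8, 2465 ± 101 CPM in co and 1550.5 ± 99.9 CPM in hy5, against 1697 ± 95.6 CPM in WT. The difference between hy5 and WT under UV-B was -0.13 (SE 0.11) for LHCB5, but 0.23 on library totals, so its sign depended on the scaling.

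Without UV-B, the mutants and WT had similar mean levels of both genes. These levels are given as a description because the WT libraries without UV-B are part of the response taken to have chosen the genes. LHCB5 averaged 2671 ± 341 CPM in uvr8, 2698 ± 208 CPM in co and 2658 ± 127 CPM in hy5, against 2643 ± 223 CPM in WT (SD, n = 3 each). Its log2 differences from WT were 0.02 in uvr8, 0.03 in co and 0.01 in hy5 (SE 0.11), and the 95% intervals together spanned -0.23 to 0.27. LHCB7 averaged 18.5 ± 3.47 CPM in uvr8, 16.1 ± 2.17 CPM in co and 15.9 ± 3.43 CPM in hy5, against 18.7 ± 6.88 CPM in WT. Its log2 differences were -0.01, -0.22 and -0.23 (SE 0.23), with 95% intervals that reached from -0.71 to 0.46. All strains overlapped for either gene. Over all genes edgeR called 5.33% of genes in uvr8, 3.27% in co and 4.26% in hy5 against WT. When same-numbered libraries were paired in a block, the count was 2173 genes in uvr8 (726 without the block) and 2128 in hy5 (580 without it). Nothing is read from these shares for LHCB5 and LHCB7.

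Ordered by level, LHCB7 was highest in hy5 and WT under UV-B, while LHCB5 formed 2 blocks. For LHCB7 on TMM-scaled library sizes, the hy5 range under UV-B was 53.2 to 72.0 CPM and the WT range 89.2 to 103 CPM. These were apart from each other and from all other groups. The co range under UV-B came next, at 24.3 to 34.0 CPM, and overlapped WT without UV-B, whose second library reached 26.5 CPM. It lay above uvr8 with UV-B and above the mutants without UV-B, which together covered 12.1 to 22.2 CPM. From uvr8 with UV-B downward, each group overlapped its neighbour in the order. For LHCB5, 6 groups covered 2379 to 3174 CPM with each overlapping its neighbour, and these were the 4 strains without UV-B and co and uvr8 with it. WT and hy5 under UV-B lay below them at 1449 to 1783 CPM and overlapped each other. Whether hy5 and WT under UV-B overlapped depended on the scaling for both genes. In CPM on library totals, LHCB7 was at 52.5 to 74.6 in hy5 and 69.1 to 82.6 in WT, which overlapped. LHCB5 was then at 1500 to 1686 in hy5 and 1149 to 1476 in WT, without overlap.

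The ratio of LHCB7 to LHCB5 counts within a library does not depend on scaling. It was used to follow the opposite movement, not to compare their levels. In hy5 the libraries with UV-B had 3.42, 4.97 and 4.26 LHCB7 counts per 100 LHCB5 counts, against 0.668, 0.669 and 0.458 without. In co they had 0.942, 1.19 and 1.39 with UV-B, against 0.598, 0.647 and 0.541 without. Neither pair of groups overlapped, and the log2 ratio was higher with UV-B by 2.82 in hy5 and 0.97 in co. An exact two-sided permutation test gave p = 0.1 for each, the smallest that 3 libraries against 3 allow (0.15 adjusted over 3 tests). In uvr8 the ratio was 0.590, 0.788 and 0.684 with UV-B and 0.594, 0.932 and 0.592 without, with overlapping groups and a log2 difference of -0.01 (exact permutation p = 0.8, 0.8 adjusted). In WT the ratio was 6.01, 5.59 and 5.60 with UV-B, against 0.464, 1.05 and 0.645 without.

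**Figure D3:**
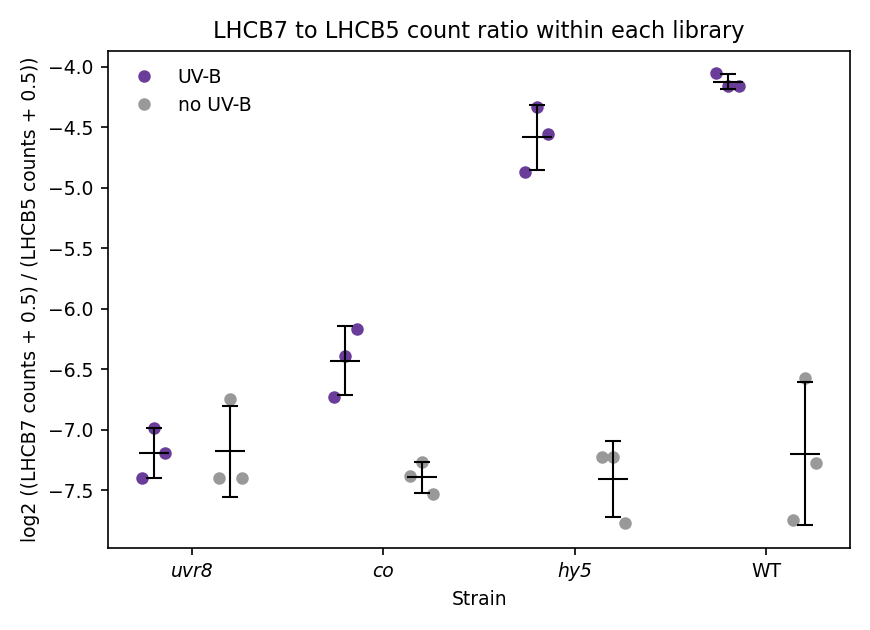
Log2 of the ratio of LHCB7 to LHCB5 counts in each library (0.5 added to both counts), by strain, with UV-B (purple) left of no UV-B (grey). Points are libraries and bars the mean ± SD of 3. The UV-B libraries of hy5 and co lie above those without UV-B by 2.82 and 0.97 on average, and those of uvr8 overlap them.

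The rest of the PSII antenna was examined beside them. Of 12 antenna genes listed (LHCBM1 to LHCBM9, LHCB4, LHCB5 and LHCB7), 11 were measured. In hy5, LHCB7 rose and LHCB5 fell, and these are the 2 genes chosen for their UV-B response. The 9 LHCBM genes did not pass. The 7.04% of all genes called higher and 2.54% called lower would also give this, so it is no result about the 9. The LHCBM changes in hy5 ran from -0.93 for LHCBM8 (SE 0.45, edgeR adjusted p = 0.241) to 0.09 for LHCBM1 (SE 0.20, edgeR adjusted p = 0.882). The median of the 11 genes, LHCB5 and LHCB7 included, was -0.23, against -0.004 for all genes. In co the 11 had a median of 0.10 and edgeR called 0, with 1 at an unadjusted p under 0.05 and 1 called by DESeq2, which was LHCB7. Of all genes edgeR called 1.65% as higher and 0.0661% as lower in co. In uvr8 all 11 fold changes were positive with a median of 0.39, against 0.01 for all genes. There edgeR called 0, with 3 at an unadjusted p under 0.05, and DESeq2 called 1. Without the 8 libraries numbered 1 edgeR called 7 antenna genes as higher in uvr8. That fit called 1580 genes over all in uvr8, against 0% of genes in the fit of 24 libraries, so the 7 are a description. LHCBM9, at 49.4 ± 8.43 CPM with and 26.5 ± 6.07 CPM without UV-B in uvr8, had a lower change in hy5 than in uvr8 (difference -1.09, SE 0.29, edgeR adjusted p = 0.0293). This LHCBM9 call was lost without any of 7 of the 12 libraries compared, taken 1 at a time (edgeR adjusted p up to 0.101), with the compared libraries alone (0.108) and without all libraries numbered 2 (0.340) or 3 (0.473). With LHCB5 it made 2 lower antenna calls in that comparison, beside LHCB7 as the higher one. Of all genes 0.331% had a lower and 3.89% a higher change in hy5 there. LHCB5 and LHCB7 were chosen for their UV-B response, so this count is a description. In the comparisons of mutants with WT without UV-B, edgeR and DESeq2 called 0 of the 9 LHCBM genes, and 2 in co had an unadjusted p under 0.05. Of all genes edgeR called 5.33% in uvr8, 3.27% in co and 4.26% in hy5 there, so this is no result about the 9. The LHCBM genes include close copies between which reads may be split, so their separate levels are uncertain.

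Genes for other PSII subunits moved with LHCB5 in hy5. A list of 6 such genes was chosen with earlier results of these data known, so the shares set beside it are a description. All 5 measured members fell, against 2.54% of all genes. They were PSBO, PSBP1 and PSBQ, which shield the oxygen-evolving centre, and the small membrane subunits PSBX and PSBY. Their log2 fold changes ran from -0.58 for PSBO (SE 0.12, edgeR adjusted p = 0.00178) to -0.86 for PSBY (SE 0.13, edgeR adjusted p = 9.35e-05), beside -0.78 for LHCB5 itself, with a list median of -0.64 against -0.004 for all genes. PSBY was at 471 ± 85.7 CPM with and 857 ± 41.2 CPM without UV-B in hy5. In co and uvr8 edgeR and DESeq2 called 0 of the 5, with 1 at an unadjusted p under 0.05 in co and 0 in uvr8. Of all genes edgeR called 0.0661% as lower in co and 0% in uvr8, so this is no result about the 5. The falls were not particular to hy5. In WT, as a description, all 5 log2 fold changes were negative, at -0.73 to -0.35 with a median of -0.45, against 0.01 for all genes. The change in hy5 was lower than that in uvr8 for 4 of the 5 (all but PSBX), against 0.331% of all genes. The falls of PSBO, PSBP1, PSBQ and PSBY in hy5 held without any 1 of the 6 hy5 libraries, and that of PSBX was lost without any of 4 of them (edgeR adjusted p up to 0.173). Without all libraries numbered 2 or 3, the calls of PSBO, PSBP1, PSBQ and PSBX in hy5 were lost (edgeR adjusted p = 0.0751 to 0.429), and that of PSBY held. In the comparison with uvr8, the call of PSBQ was lost without any of 4 of 12 libraries (edgeR adjusted p up to 0.0643). All 4 calls against uvr8 were lost without the libraries numbered 2 (edgeR adjusted p = 0.300 to 0.434) or 3 (0.279 to 0.569), and with the compared libraries alone (0.0573 to 0.0911).

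Genes of the steps that place antenna proteins in the membrane or move them between photosystems were examined last. None of 5 genes for insertion of antenna proteins and chlorophyll b synthesis (ALB3.1, CPFTSY, CPSRP43, CPSRP54 and CAO1) passed with edgeR or DESeq2 in uvr8, co or hy5, and 2 had an unadjusted p under 0.05 in hy5. This is a share that the 7.04% of genes higher and 2.54% lower in hy5, 1.65% and 0.0661% in co and 0% in uvr8 would also give, so it is no result about the list. Their median in hy5 was -0.45. Of 4 genes for kinases and phosphatases of state transitions and thylakoid phosphorylation (STT7, STL1, PPH1 and PBCP), STL1 rose in hy5 by edgeR, and DESeq2 called 1 more as lower. With 7.04% of all genes higher and 2.54% lower in hy5, 1 edgeR call among 4 genes is no result about this list. STL1 was at 200.5 ± 11.0 CPM with UV-B and 85.7 ± 10.5 CPM without (log2 fold change 1.23, SE 0.20, edgeR adjusted p = 0.000216), a call lost without all libraries numbered 3 (edgeR adjusted p = 0.0752). Its change was also higher in hy5 than in uvr8 (difference 1.15, SE 0.28, edgeR adjusted p = 0.0177), as for 3.89% of all genes. That call was lost without any of 4 of the 12 libraries compared (edgeR adjusted p up to 0.0615). It was also lost without all libraries numbered 2 (0.220) or 3 (0.435), in the mutant libraries alone (0.0548) and in the compared libraries alone (0.0571).

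**Figure D4:**
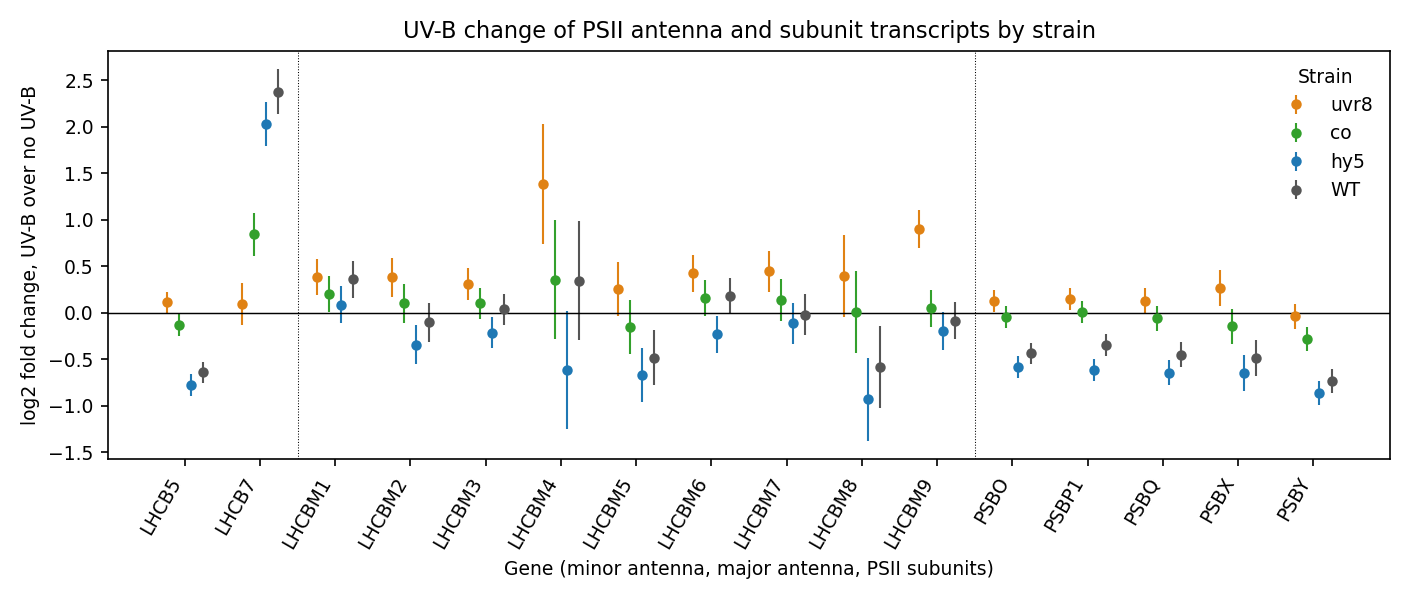
Log2 fold changes with UV-B of the measured PSII antenna and subunit genes in uvr8 (orange), co (green), hy5 (blue) and WT (dark grey), with bars of 1 SE from the edgeR fit. In hy5 LHCB7 lies at 2.03, while LHCB5 lies at -0.78 near the PSII subunits, whose values run from -0.86 to -0.58.

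The patterns across all 24 libraries were ranked by Pearson's r of log2 CPM, as a description of libraries that share groups and scaling. The 5 genes most like LHCB5 had r of 0.91 to 0.94. Of these, 3 were PSBO (r = 0.93), PSBY (r = 0.92) and PSBP1 (r = 0.91), and the others, Cre02.g082500 and Cre06.g268600, have no name in the sources used here. Among the LHCBM genes r with LHCB5 ran from 0.03 (LHCBM1) to 0.69 (LHCBM5). The 5 genes most like LHCB7 had r of 0.98 and held no gene of the lists. The first was Cre13.g587450, at 26.5 CPM with and 10.3 CPM without UV-B in co, 67.4 and 8.85 CPM in hy5 and 11.3 and 11.8 CPM in uvr8. With Spearman's rank correlation 2 of the 5 genes were kept for LHCB5 and 3 for LHCB7. Without the 8 libraries of 1 replicate number, 2 to 3 were kept for LHCB5 and 1 to 4 for LHCB7.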

How the data were processed

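The deposited values are raw counts, in 1 table with a column for each of 24 libraries. The submitters' processing notes name STAR 2.7.10b, HTSeq 0.11.3, bcl2fastq 2.20.0 and edgeR 3.42.4 without their roles. The gene identifiers end in v6.1. Per the labels' protocols the kit was a stranded poly(A) kit. How strand and multiply matching reads were counted, and the build, is not given in the sources used here. Groups and replicate numbers came from sample titles.

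The filter was filterByExpr of edgeR (a minimum count of 10 and a minimum total of 15), and 126 genes had 0 counts throughout. TMM scaling gave factors of 0.670 to 1.20. A model with a mean for each group was fitted to all 24 libraries in edgeR 4.0.16 (limma 3.58.1, R 4.3.3), and contrasts were tested by quasi-likelihood. P-values were adjusted by the Benjamini-Hochberg method and called under 0.05. The SE is the fold change divided by the square root of F. The script was tested on simulated data. Alternatives were RLE scaling, DESeq2 1.42.0, no filter, the replicate number as a block, only the libraries compared, libraries left out, and, chosen after seeing the data, library totals only and the 18 mutant libraries alone.

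Same-numbered libraries counted as paired where all 3 correlations of deviations from group means were over 0.1. This was so without UV-B for uvr8 against WT (0.591, 0.657 and 0.128) and hy5 against WT (0.576, 0.606 and 0.330), and for UV-B in WT (0.563, 0.517 and 0.173). With UV-B it was also so against WT for uvr8 (0.599, 0.541 and 0.445), co (0.629, 0.633 and 0.559) and hy5 (0.546, 0.709 and 0.487). The SEs given for these differences come from the fit without a block. It was not so within the mutants. The numbers come from the titles.

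The members and lists were chosen with earlier results of these data known. Genes named are these 2, the antenna list, called members of the other lists, the 5 genes of most similar pattern and the mutated genes. Names were assigned to locus numbers by hand. The RefSeq gene table used here (assembly v5.5) holds 13245 of the loci but 0 symbols, so they could not be checked. LHCB4 and PSBR were not analysed here, and no sequence or coordinate is printed.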

Additional observations from a re-analysis of the deposited data

Results flagged for a closer look

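Both genes had a UV-B response that differed between mutant strains by a test of the difference itself. The p-values assume that mutant responses did not enter the choice of the genes. For LHCB5 the log2 fold change in hy5 minus that in uvr8 was -0.89 (SE 0.16, edgeR adjusted p = 0.00139), and all 3 hy5 libraries with UV-B lay below all 3 without. For LHCB7 the same difference was 1.94 (SE 0.33, edgeR adjusted p = 0.000608), and all 3 hy5 libraries with UV-B lay above all 3 without. These separations are a description, since the share of all genes whose groups do not overlap is not given. Both calls were lost without all libraries numbered 3 (edgeR adjusted p = 0.307 for LHCB5 and 0.0694 for LHCB7). That of LHCB5 was also lost without those numbered 2.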

How the results depend on the processing

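Among the recomputed values of LHCB5, LHCB7 and their ratio, 522 kept direction and call, or moved by less than 1 SD where untested. Of the others, 28 changed sign, 19 moved by more, 8 newly passed and 3 no longer did. Differences from WT without UV-B were counted by their call, though their p-values are not given. With the replicate block, the UV-B effect in co for LHCB7 passed (0.85, edgeR adjusted p = 0.0298), as did hy5 minus co for LHCB5 (-0.65, edgeR adjusted p = 0.00858) and LHCB7 (1.18, edgeR adjusted p = 0.0491), and LHCB7 in uvr8 against WT without UV-B was 0.0019; the block changed no other call. The same 3 passed with DESeq2 (0.81, -0.65 and 1.18). With library totals only, hy5 minus co for LHCB5 passed (-0.70), and without UV-B LHCB7 was at 0.0091 in uvr8 and 0.026 in co against WT. With this scaling the median of all genes was -0.25 for UV-B in WT, against 0.01 with TMM. It gave -0.89 for LHCB5 in WT, effects minus WT of 1.08 (uvr8), 0.73 (co) and 0.030 (hy5) for LHCB5 and -1.92 (uvr8) for LHCB7, and differences from WT under UV-B of 1.14 (uvr8), 1.03 (co) and 0.23 (hy5) for LHCB5 and -1.91 (uvr8), -1.25 (co) and -0.21 (hy5) for LHCB7. The cause of each change was not tested.

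Leaving out libraries, singly or by number, gave these ranges. The UV-B effect in hy5 minus uvr8 was -0.995 to -0.81 for LHCB5 and 1.77 to 2.09 for LHCB7. LHCB7 ranged over 0.59 to 1.02 in co, -0.10 to 0.25 in uvr8 and 2.12 to 2.77 in WT. Its effects minus WT were -2.62 to -1.91 in uvr8, -1.89 to -1.10 in co and -0.77 to 0.17 in hy5, and uvr8 minus WT under UV-B was -2.40 to -2.12. For LHCB5, co minus WT under UV-B was 0.495 to 0.62. Differences from WT without UV-B were -0.090 to 0.091 (uvr8), -0.032 to 0.13 (co) and -0.030 to 0.089 (hy5) for LHCB5 and -0.21 to 0.32 (uvr8), -0.48 to 0.12 (co) and -0.58 to 0.10 (hy5) for LHCB7. The log2 ratio difference in uvr8 was -0.13 to 0.10.

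The number of genes called depended on the libraries used. It was 1305 for UV-B in hy5 (365 without the libraries numbered 3 to 2627 without those numbered 1), 234 in co (0 to 772 in the same fits), 0 in uvr8 (0 to 1580 without those numbered 1) and 574 for hy5 minus uvr8 (157 without those numbered 3 to 1033 with the block). It was 129 for hy5 minus co (0 without those numbered 3 to 253 with the block), 77 for co minus uvr8 (0 without those numbered 2 to 140 with DESeq2) and 445 for co against WT without UV-B (85 without those numbered 3 to 1812 with the block).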

Other observations

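In the RefSeq gene order of assembly v5.5, the genes on either side of LHCB7 do not overlap it. Their log2 fold changes with UV-B in hy5 were -0.74 (SE 0.51, edgeR adjusted p = 0.475) and 0.27 (SE 0.29, edgeR adjusted p = 0.687), beside 2.03 for LHCB7. In co they were -0.11 and 0.63 (edgeR adjusted p = 0.995 and 0.563), beside 0.84 for LHCB7. Of the neighbours of LHCB5, 1 was in the count table, with a log2 fold change of -0.64 in hy5 (SE 0.91, edgeR adjusted p = 0.790).

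With UV-B, the library numbered 1 had the lowest LHCB7 level of its group in each of the 3 mutants, at 16.5 CPM in uvr8, 24.3 CPM in co and 53.2 CPM in hy5. Without UV-B, the library numbered 3 had the lowest level in each of them, at 15.3 CPM in uvr8, 13.6 CPM in co and 12.1 CPM in hy5. In WT the lowest LHCB7 levels were those of number 2 with UV-B (89.2 CPM) and number 1 without (13.5 CPM).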
